A study of Mus musculus with 19 samples.

Results

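The genes of the respiratory chain and of ATP synthase were followed in mouse melanocytes with and without BAP1, in culture and in tumours. They were taken by symbol: the Nduf, Uqcr, Cox, Sdh and Atp5 families of the nuclear genome, and the mitochondrially encoded Nd, Cytb, Co and Atp genes. Of the 13202 genes of the bulk table, 88 belonged to them, 78 nuclear and 10 mitochondrial, and the mitochondrial genes were matched by gene identifier because that table uses other symbols for them. In the single-cell matrices there were 95 of 19059 genes, 82 nuclear and 13 mitochondrial, and in the matrix labelled WT ocular 98 of 32285. The study asked what happens when BAP1, a tumour suppressor that removes ubiquitin from nuclear proteins, is lost in melanocytic cells and in the tumours they form. Bulk RNA was measured in 4 CRISPR-made BAP1 knockout clones of Melan-a, a mouse melanocyte line that grows without limit, and in the unedited BAP1 wild-type Melan-a line (WT, called parental here). Each line had 2 cultures, which makes 10 libraries, with no drug given and a single batch label for all. Each knockout line is 1 clone, and all lines descend from 1 cell line. Single-cell RNA was measured in dissociated tumours that grew after Melan-a cells, BAP1 knockout or wild-type, were injected into syngeneic mice under the skin or into the eye. These came as matrices named KO skin, KO ocular, WT skin and WT ocular, with 1 tumour each per the series' design, and the sources used here do not say which clone was injected.

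Electrons from NADH enter the chain at complex I and those from succinate at complex II, pass through complex III to complex IV, which reduces oxygen, and the proton gradient built on the way drives complex V, the ATP synthase. Complexes I, III, IV and V combine nuclear subunits, which are made in the cytosol and imported, with core subunits encoded by mitochondrial DNA, while complex II is wholly nuclear. Nearly all of the mitochondrial genes are transcribed from the heavy-strand promoter, whereas mt-Nd6 alone among the protein-coding genes is read from the light strand. The nuclear respiratory factor NRF-1, the ETS-family complex GABP and the factor YY1 are textbook regulators of the nuclear genes, and melanocytes are known to raise respiration through PGC-1 alpha under the control of MITF.

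Promoters of nuclear members were read for those motifs in windows of 250 bases before to 50 bases after the annotated start, from RefSeq sequences on build GRCm38.p6. A window was found for 65 of the 78 nuclear members, which gave 70 windows. The core of the NRF-1 motif, CGCANGCGC on either strand, stood in 35.7% of the members' windows, against 6.31% of all 32851 windows. The ETS motif CCGGAAG stood in 24.3% of the members' windows and in 8.86% of all windows, and the YY1 core AAGATGGCG in 10% and 1.4%. At least 1 of the motifs was held by 57.1% of the members' windows, against 14.9% of all windows. The share was 57.9% among windows of the members that passed the test in at least 1 clone and 56.9% among windows of those that passed in none. The 32851 windows were those of the whole reference set, expressed in these cells or not, and the shares among expressed genes alone were not taken. A match is a string of letters and not a measured binding site.

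The 250 bases before the start are shown for 6 nuclear members that the results below turn on, 5′ to 3′ on the strand of the gene, with motif matches in capitals. Ndufa3 and Ndufb1, which are also followed below, held none of the motifs in these bases and are not shown. Cox5a (chr9:57520982-57521231, plus strand) and Cox7a2 (chr9:79759854-79760103, minus strand) held none of the motifs. Cox6b1 (chr7:30626115-30626364, minus strand) held an ETS motif 28 bases before the start, and Ndufa12 (chr10:94198785-94199034, plus strand) an NRF-1 core 120 bases before it. Ndufa5 (chr6:24527691-24527940, minus strand, shown for 1 of its annotated starts) held an NRF-1 core 25 bases before the start. Cox6a1 (chr5:115348959-115349208, minus strand) held 4 matches, of which 3 were NRF-1 cores, a pair of them overlapping, and 1 was an ETS motif.
Cox5a: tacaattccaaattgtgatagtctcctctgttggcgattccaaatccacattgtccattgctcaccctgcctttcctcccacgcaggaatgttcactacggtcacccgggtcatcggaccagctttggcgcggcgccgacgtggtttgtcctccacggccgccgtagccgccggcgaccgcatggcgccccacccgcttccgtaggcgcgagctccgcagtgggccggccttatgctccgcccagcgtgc
Cox7a2: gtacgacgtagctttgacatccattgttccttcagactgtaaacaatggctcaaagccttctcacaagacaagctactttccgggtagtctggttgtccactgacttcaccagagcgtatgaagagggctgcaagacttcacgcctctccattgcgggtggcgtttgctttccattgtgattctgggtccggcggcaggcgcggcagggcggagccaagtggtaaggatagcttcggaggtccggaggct
Cox6b1: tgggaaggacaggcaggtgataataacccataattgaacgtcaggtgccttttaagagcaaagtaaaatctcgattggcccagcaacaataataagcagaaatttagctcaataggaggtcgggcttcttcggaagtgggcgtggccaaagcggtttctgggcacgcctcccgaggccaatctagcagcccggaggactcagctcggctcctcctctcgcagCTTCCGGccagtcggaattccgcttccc
Ndufa12: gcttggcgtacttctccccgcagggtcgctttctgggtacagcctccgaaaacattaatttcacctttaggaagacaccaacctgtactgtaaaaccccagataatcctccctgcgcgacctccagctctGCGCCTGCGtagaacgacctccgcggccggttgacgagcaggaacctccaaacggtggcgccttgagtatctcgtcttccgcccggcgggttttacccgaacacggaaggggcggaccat
Ndufa5: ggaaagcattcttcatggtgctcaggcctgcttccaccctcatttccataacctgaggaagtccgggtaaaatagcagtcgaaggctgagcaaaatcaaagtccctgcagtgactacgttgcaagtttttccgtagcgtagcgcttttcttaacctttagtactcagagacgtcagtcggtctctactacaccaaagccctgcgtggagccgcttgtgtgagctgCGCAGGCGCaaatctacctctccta
Cox6a1: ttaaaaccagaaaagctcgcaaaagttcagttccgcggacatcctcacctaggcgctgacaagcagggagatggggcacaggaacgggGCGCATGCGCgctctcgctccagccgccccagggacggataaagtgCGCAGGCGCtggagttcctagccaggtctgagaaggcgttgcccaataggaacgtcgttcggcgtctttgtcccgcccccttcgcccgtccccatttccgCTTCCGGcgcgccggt

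Bulk values were deposited as variance-stabilised expression, close to a log2 scale, and this scale understates the change of weakly expressed genes. They were inverted to whole reads, and levels are given below as reads divided by the library's size factor (normalised reads). Libraries held 30.8 to 46.8 M reads. All 13 melanocytic markers were present and took 4.12% to 5.35% of the reads in the clones, against 5.49% and 5.53% in the parental cultures. Bap1 itself stood at 359.4 to 1193 normalised reads in the clones and at 4450 and 4392 in the parental cultures, and was lower in each clone by limma, with log2 differences of -2.38, -1.85, -1.79 and -2.94. Between the cultures of a clone the chi-square averaged 11.3 to 79.3 per gene, against 2.5 between the parental cultures, which lay closest to each other and were counted as 2 samples. Whether a line's cultures were separate from the outset is not in the labels, so p-values measure the spread between these cultures, which may be technical. Each clone was set against the same 2 parental libraries, so the 4 comparisons share their reference. In bulk RNA, a change in every cell and a change in the share of cells that express a gene cannot be told apart.

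Among the mitochondrial genes, mt-Nd6 was lower in every clone, and in the fit of all lines no other mitochondrial gene passed as lower. A fit of clone 3 and the parental line alone called 2 lower in that clone. mt-Nd6, the light-strand gene for a membrane subunit of complex I, had normalised reads of 2479 and 3079 (clone 1), 2953 and 2934 (clone 2), 2986 and 2850 (clone 3) and 3172 and 3392 (clone 4), against 6021 and 7290 in the parental cultures. All 8 clone libraries lay below both parental libraries, with no overlap, as was so for 12.1% of all tested genes. The log2 differences were -1.21, -1.12, -1.13 and -0.97 in clones 1 to 4, each with an SE of 0.13. The adjusted p-values from limma, Benjamini-Hochberg over all 10803 genes tested, were 0.000752, 0.000167, 9.9e-05 and 0.000275. The 4 clones did not pass the test for differing from each other in mt-Nd6 (limma F test, adjusted p = 0.424). With the clone as the unit, where the 4 clone means face the single parental mean, the adjusted p was 0.718 and the unadjusted p was 0.00041 (limma). That test called 0% of all genes after adjustment and 6.21% at an unadjusted p under 0.05, where mt-Nd6 was the only one of the mitochondrial genes and no nuclear member was included.

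The drop in mt-Nd6 also stood out within the mitochondrial reads. mt-Nd6 had 1412 to 2053 reads per 1000000 reads of the other mitochondrial members in the clone libraries, against 3687 and 4591 in the parental libraries. The mitochondrial members together took 4.19% to 5.54% of the reads in the clones and 4.53% and 4.46% in the parental cultures, so the totals overlapped. Per kilobase of gene, mt-Nd6 had 4777 to 6536 normalised reads in the clones and 11601 and 14046 in the parental cultures, the lowest among the 7 mitochondrial genes that could be tested. mt-Nd6 (MT:13552-14070) shares 14 bases with mt-Nd5 on the opposite strand. Libraries were stranded per the labels, but the sources used here do not say whether the counting used the strand, so reads from mt-Nd6 and from heavy-strand RNA across it cannot be told apart. The libraries were also made from polyadenylated RNA per the labels. Read counts thus depend on capture as well as on abundance, and whether mt-Nd6 RNA was captured like that of the other genes was not tested.

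Heavy-strand genes passed as higher in clone 4 and, in the fit of all lines, in no other clone. With edgeR and with DESeq2 1 such gene each also passed in clones 2 and 3, and after quantile normalisation 2 in clone 2 and 3 in clone 3. mt-Nd1, a core membrane subunit of complex I, had normalised reads of 97448 and 145553 (clone 1), 148184 and 163299 (clone 2), 168851 and 159214 (clone 3) and 251057 and 259650 (clone 4), against 116227 and 115494 in the parental cultures. The clone 4 libraries were the highest of all 10, and clone 1 straddled the parental level. The log2 difference of mt-Nd1 was 1.14 in clone 4 (SE 0.18, limma adjusted p = 0.00106), while it was 0.04, 0.42 and 0.50 in clones 1 to 3, none past the threshold. mt-Cytb, the mitochondrial subunit of complex III, had 458919 and 382512 normalised reads in clone 4, against 257282 and 248945 in the parental cultures. Its difference in clone 4 was 0.73 (SE 0.16, limma adjusted p = 0.00621), and in clones 1 to 3 it was 0.05, 0.43 and 0.20, none past the threshold. Without either parental culture the call of mt-Cytb was lost (adjusted p = 0.0545 and 0.0692). mt-Nd2, mt-Nd4, mt-Nd5 and mt-Co1, subunits of complexes I and IV, passed in no clone, with differences between -0.27 and 0.50. The clones differed from each other in mt-Nd1 (limma F test, adjusted p = 0.00571), mt-Cytb (0.0268) and mt-Nd4 (0.042).

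mt-Co2, mt-Atp6 and mt-Co3, which lie side by side at MT:7013-9390 and encode subunits of complexes IV and V, were close to empty in the bulk table. Across the 10 libraries they had 9.88 to 54.1 normalised reads per kilobase, whereas mt-Co1, their upstream neighbour and another complex IV subunit, had 404034 to 599450 in the clones and 471198 to 485135 in the parental cultures. They fell under the filter on low values and were not tested. The nuclear genome carries near-identical copies of mitochondrial DNA, and the sources used here do not say how reads that match both were counted, so the bulk levels of mitochondrial genes are uncertain. In the single-cell matrices the same genes were well covered, with 309709 UMIs for mt-Co2 in melanocytic-like cells of the matrix labelled WT skin.

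**Figure D1:**
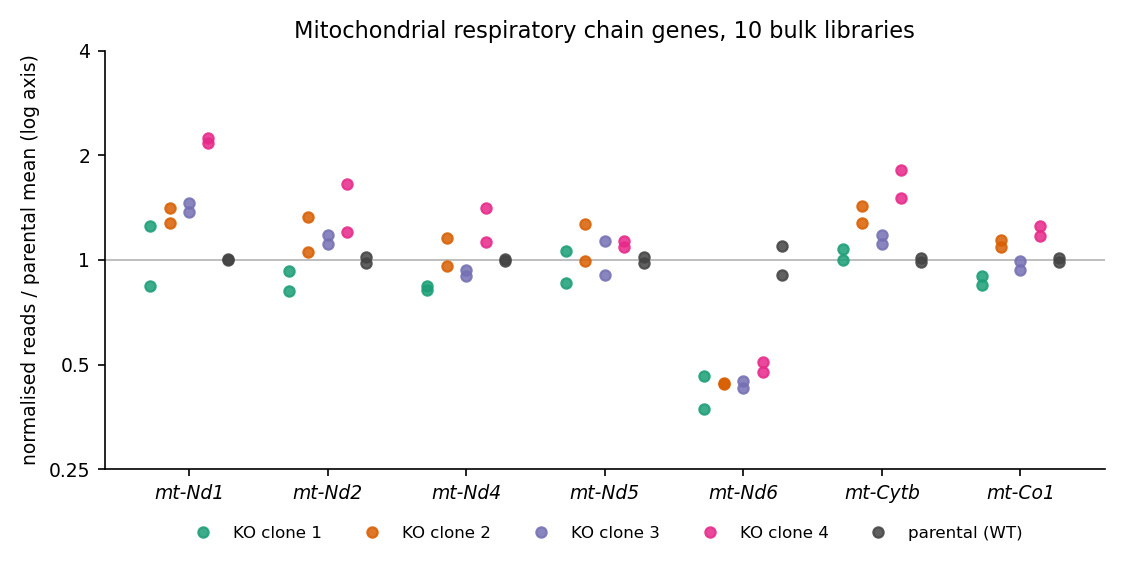
Normalised reads of the 7 tested mitochondrial genes in each of the 10 bulk libraries, divided by the parental mean, on a log axis, with the clones left of the parental cultures (WT) and 1 point per library. mt-Nd6 lies below the parental level in all 8 clone libraries, and mt-Nd1 and mt-Cytb are highest in clone 4.

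The nuclear genes moved in small steps that differed by clone. All 78 passed the filter. Clone 1 had 0 higher and 0 lower at an adjusted p under 0.05, where 1.15% of all tested genes were called higher and 2.35% lower. Clone 2 had 3 higher and 1 lower, against 12% and 14.1% of all genes. Clone 3 had 1 higher and 15 lower, against 19.9% and 20%. Clone 4 had 6 higher and 4 lower, against 19.3% and 17.2%. In this fit the share of nuclear members called lower in clone 3 was thus near that of all genes, and the other shares lay below it. The median log2 difference over the 78 members was -0.19, -0.02, -0.21 and 0.04 in clones 1 to 4, beside -0.02, 0.03, 0.01 and 0.04 over all tested genes. After quantile normalisation the members' medians were -0.17, -0.09, -0.28 and -0.10, so the sign in clone 4 depends on the scaling. In the simulated clone 3 comparison, limma recovered 16 of 100 genes changed by 1.5-fold and 81 of 100 changed by 2-fold, and the differences called here mostly lay below the larger of these folds. The counts rest on few libraries: without 1 library in turn, the members called in clone 3 numbered 5 (without culture 1 of clone 3) to 26 (without either culture of clone 4), those in clone 2 numbered 0 (without either parental culture) to 12 (without either culture of clone 4), and those in clone 4 numbered 2 (without parental culture 2) to 21 (without culture 1 of clone 4). In clone 4 the balance depended on the culture kept, with 2 higher and 19 lower without culture 1 (all genes 19.2% and 18.8%) and 11 higher and 2 lower without culture 2 (17.7% and 15.1%). A fit of clone 3 and the parental line alone called 4 higher and 48 lower, where it called 36.3% and 33.2% of all genes. After quantile normalisation the counts higher and lower were 4 and 6 in clone 2 (all genes 13.3% and 13.1%), 2 and 25 in clone 3 (22% and 18.3%) and 5 and 8 in clone 4 (20.2% and 17%). In that fit of clone 3 alone with the parental line and after quantile normalisation, the share of the 78 members lower in clone 3 was above that of all genes. The other shares of these settings lay below it, so the reading for clone 3 depends on the setting.

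Nuclear members together took 1.02% to 1.35% of reads in the clones and 1.25% in each parental culture. For 54 of the 78, no clone passed the threshold. All 8 clone libraries lay below both parental libraries for 7 nuclear members (Ndufb3, Ndufs1, Sdhc, Uqcrh, Cox6b1, Cox7a2 and Atp5j), against 12.1% of all tested genes, and above both for 1 (Ndufb2), against 10.9%. With the clone as the unit, 0 nuclear members passed after adjustment and 0 at an unadjusted p under 0.05 (limma), against the shares of all genes given above for that test. The sources used here do not say how reads that match processed pseudogenes were counted, and several of the small subunits have such copies, so single values of theirs are uncertain to that extent.

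**Figure D2:**
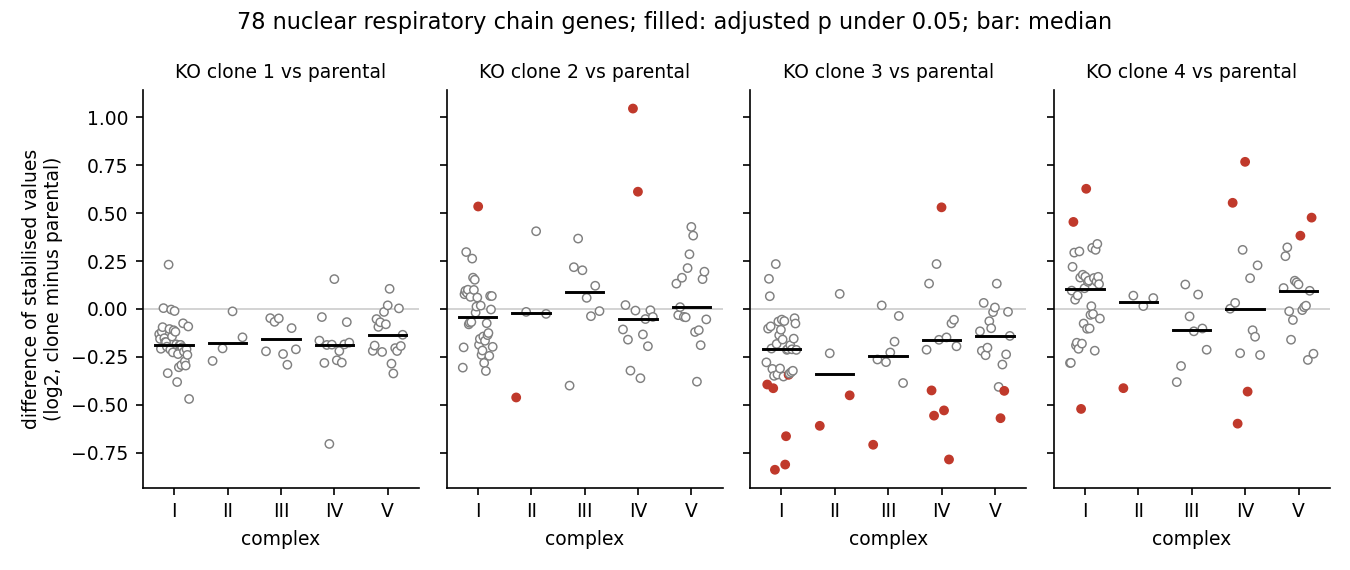
Log2 difference from the parental line (clone minus parental, stabilised values) for the 78 nuclear genes, in a panel per clone and split by complex, with filled points past an adjusted p of 0.05 and a bar at the median. Clone 3 holds most of the filled points, 15 of its 16 below zero, and clone 1 holds none.

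Complex II was represented by its 4 subunits, and only Sdhc, the membrane anchor that helps bind ubiquinone, was lower in more than 1 clone. Sdhc had normalised reads of 7622 and 7195 (clone 1), 6144 and 6806 (clone 2), 5715 and 5924 (clone 3) and 6645 and 6744 (clone 4), against 9012 and 8936 in the parental cultures. No clone library reached the parental level. The log2 differences were -0.27 in clone 1 (limma adjusted p = 0.187), -0.46 in clone 2 (0.00665), -0.61 in clone 3 (0.000892) and -0.41 in clone 4 (0.00826). Sdha, the flavoprotein that oxidises succinate, was lower in clone 3, at 5884 and 6050 normalised reads against 8376 and 8066 in the parental cultures (-0.45, limma adjusted p = 0.0038). In the other clones Sdha differed by -0.15, -0.03 and 0.06, none past the threshold. Sdhb, the iron-sulphur subunit, differed by -0.23 to 0.07, and Sdhd, the other membrane anchor, by -0.01 to 0.41, and neither passed in any clone. Without parental culture 1 or 2, the calls of Sdhc in clone 2 (adjusted p = 0.0763 and 0.0682) and clone 4 (0.0778 and 0.0712) were lost while the differences kept their size, and without parental culture 1 that of Sdha was lost too (0.0556).

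In complex IV the changes went both ways. Cox5a, a small subunit on the matrix side of cytochrome c oxidase, had normalised reads of 2151 and 2947 (clone 1), 3050 and 4070 (clone 2), 3172 and 3477 (clone 3) and 4069 and 3832 (clone 4), against 2307 and 2180 in the parental cultures. The cultures of clones 2, 3 and 4 all lay above both parental cultures, and those of clone 1 lay on either side of them. The log2 differences were 0.16 (limma adjusted p = 0.705), 0.61 (0.0175), 0.53 (0.0227) and 0.77 (0.0041). Without either parental culture the calls of Cox5a in clone 2 (adjusted p = 0.0829 and 0.117) and in clone 3 (0.082 and 0.124) were lost, as they were without culture 2 of clone 2 (0.14) and without either culture of clone 3 (0.0691 and 0.138).

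Cox6b1, a subunit on the intermembrane-space side that bridges the monomers of the enzyme, had 2769 and 3166 normalised reads in clone 3 and 3195 and 2579 in clone 4, against 4475 and 4409 in the parental cultures. It was lower in both of these clones (-0.56, limma adjusted p = 0.00417, and -0.60, 0.00311), and by -0.19 and -0.32 in clones 1 and 2 without passing. Cox7a2, the widely expressed isoform of subunit VIIa, had 2744 and 2906 normalised reads in clone 3 and 3716 and 2474 in clone 4, against 4095 and 4220 in the parental cultures. Its cultures in clone 4 were far apart, though both lay below the parental ones. Cox7a2 was lower in clone 3 (-0.53, limma adjusted p = 0.0196) and only just past the threshold in clone 4 (-0.43, 0.0493), where the call was lost with a stricter filter on low values (0.0519), in a fit of clone 4 and the parental line alone (0.146) and without any 1 of 7 libraries, most of all culture 2 of clone 4 (-0.15, 0.256). In clone 3 the call of Cox7a2 was lost without either parental culture (0.0831 and 0.105) or either culture of clone 3 (0.11 and 0.0744), and that of Cox6b1 without culture 1 of clone 3 (0.0517).

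**Figure D3:**
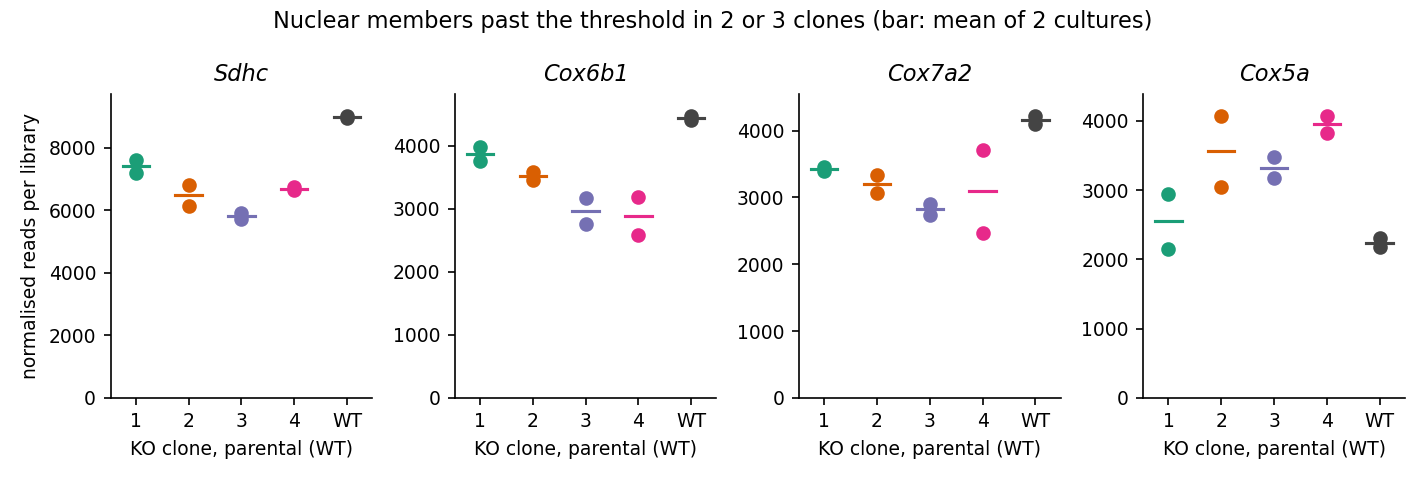
Normalised reads per library (linear axis from 0) of 4 nuclear genes of complexes II and IV, with 1 point per culture, a bar at the mean of the 2 cultures, clones 1 to 4 on the left and the parental line (WT) on the right. Sdhc, Cox6b1 and Cox7a2 sit below the parental cultures in all 8 clone libraries, and Cox5a sits above them in clones 2, 3 and 4.

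Cox6a2, the isoform of subunit VIa typical of heart and skeletal muscle, varied most among the clones. It had normalised reads of 361.5 and 610.4 (clone 1), 1740 and 2309 (clone 2), 1072 and 1059 (clone 3) and 1040 and 490.5 (clone 4), against 883.3 and 874.1 in the parental cultures. Clone 2 was above every other line and clone 1 below the parental one. It was higher in clone 2 (1.04, limma adjusted p = 0.0139), and differed by -0.70, 0.23 and -0.23 in clones 1, 3 and 4 without passing. Its widely expressed counterpart Cox6a1 was higher in clone 4, with 20238 and 18671 normalised reads against 13371 and 13002 in the parental cultures (0.55, limma adjusted p = 0.0245). Cox6c, a small membrane subunit, was lower in clone 3, with 5717 and 6178 normalised reads against 10529 and 10220 in the parental cultures (-0.78, 0.00144). Ndufa4, once assigned to complex I and now counted with complex IV, was lower in clone 3 too (-0.42, 0.0263). Cox4i1, the common isoform of subunit IV, differed by -0.19 to 0.31, Cox7a2l, which helps complexes III and IV associate, by -0.19 to -0.07, and Cox8a, the common isoform of subunit VIII, by -0.07 to 0.23, and none of them passed in any clone. The call of Cox6a2 was lost without culture 2 of clone 2 (0.86, adjusted p = 0.104) and without either parental culture (0.0735 and 0.075). That of Cox6a1 was lost without any 1 of the cultures of clone 4 or of the parental line (0.0525 to 0.125), and after quantile normalisation (0.38, 0.0518). That of Ndufa4 was lost without any 1 of the cultures of clone 3 or of the parental line (0.0716 to 0.16).

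Complex I had 36 nuclear members, of which 6 were lower in clone 3, 2 higher and 1 lower in clone 4, 1 higher in clone 2 and none called in clone 1. Of all genes, 20% were lower in clone 3, 19.3% higher and 17.2% lower in clone 4, and 12% higher in clone 2, so the share of complex I was below the background in each case. Ndufa5, an accessory subunit of the matrix arm, had 1310 and 1383 normalised reads in clone 3, against 2507 and 2598 in the parental cultures (-0.84, limma adjusted p = 0.00693). This was the largest fall of a nuclear member past the threshold in any clone. Ndufb9, an accessory subunit of the membrane arm, had 1201 and 1423 normalised reads in clone 3, against 2393 and 2475 in the parental cultures (-0.81, 0.00578). The other complex I members lower in clone 3 were Ndufa6 (-0.66), Ndufb6 (-0.41), Ndufs1 (-0.39), which holds iron-sulphur clusters of the electron-input arm, and Ndufv3 (-0.34), with adjusted p-values of 0.00394 to 0.0413 by limma. Without culture 1 of clone 3, the calls of Ndufa5 (-0.80, adjusted p = 0.0519) and Ndufb9 (-0.70, 0.0581) narrowly missed the threshold. Those of Ndufs1, Ndufb6 and Ndufv3 were lost without any 1 of the cultures of clone 3 or of the parental line (0.0723 to 0.23), and that of Ndufv3 also without either culture of clone 2 (0.0508 each), while that of Ndufa6 held without any 1 library.

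In clone 4, the accessory subunits Ndufb1 and Ndufa8 were higher and Ndufa3 lower. Ndufb1 had 3548 and 2130 normalised reads in clone 4, against 1760 and 1678 in the parental cultures (0.63, limma adjusted p = 0.0245). Its clone 4 cultures both exceeded the parental ones but differed widely from each other. Ndufa8 differed by 0.45 (limma adjusted p = 0.00698) and Ndufa3 by -0.52 (0.023), and Ndufa3 had 1703 and 1155 normalised reads in clone 4 against 2145 and 2049 in the parental cultures. Ndufa12, an accessory subunit of the matrix arm, was higher in clone 2, with 3352 and 4526 normalised reads against 2769 and 2502 in the parental cultures (0.53, 0.0364). The calls of Ndufb1, Ndufa3 and Ndufa12 were each lost without either parental culture, at adjusted p-values of 0.0894 to 0.209, and that of Ndufa8 without parental culture 2 (0.0743). In a fit of clone 4 and the parental line alone Ndufb1 (0.098) and Ndufa3 (0.0792) did not pass, nor did Ndufa12 after quantile normalisation (0.47, 0.0551) or without either culture of clone 3 (0.055 each). Without culture 1 of clone 4 the difference of Ndufb1 was 0.28 (0.11), without culture 2 of clone 4 that of Ndufa3 was -0.27 (0.123), and without culture 2 of clone 2 that of Ndufa12 was 0.33 (0.252).

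Complexes III and V had few calls. Of 8 complex III members, Uqcrh, the hinge protein next to cytochrome c1, was lower in clone 3, with 1625 and 1754 normalised reads against 2905 and 2846 in the parental cultures (-0.71, limma adjusted p = 0.00362). It differed by -0.22, -0.40 and -0.38 in clones 1, 2 and 4, where all libraries were below the parental ones but the test was not passed. Of 17 complex V members, 2 were lower in clone 3 and 2 higher in clone 4, again below the 20% and 19.3% of all genes. The lower ones were Atp5mpl (-0.57, limma adjusted p = 0.0312), a small membrane subunit, and Atp5j (-0.43, 0.0401), a peripheral stalk subunit. The higher ones were Atp5a1 (0.48, 0.0205), the catalytic-head subunit alpha, and Atp5g1 (0.38, 0.0393), from which the proton-carrying ring is built. The calls of Atp5mpl and Atp5j were lost without any 1 of the cultures of clone 3 or of the parental line (0.0828 to 0.183), and that of Atp5a1 without any 1 of the cultures of clone 4 or of the parental line (0.0509 to 0.121). That of Atp5g1 was lost without any 1 of 5 libraries (0.0629 to 0.177), after quantile normalisation (0.0769) and with edgeR when mitochondrial genes were left out of the library sizes (0.0507). That of Uqcrh held without any 1 library.

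Several of the genes called in 1 clone lie on chromosomes whose genes shifted as a whole in that clone. On chromosome 15 the median log2 difference of all tested genes was -0.26 in clone 3, and Cox6c, Ndufb9 and Ndufa6 lie there. On chromosome 10 it was 0.28 in clone 2 (Ndufa12), and on chromosomes 5 and 12 it was 0.27 in clone 4 (Cox6a1 and Ndufb1). Chromosome 7 had a median of -0.19 in clone 4, and carries Ndufa3 and Cox6b1. With each chromosome's median removed, the calls of Ndufa12 in clone 2 (0.28, limma adjusted p = 0.227), Ndufb1 (0.35, 0.144), Cox6a1 (0.29, 0.183) and Ndufa3 (-0.32, 0.142) in clone 4 were lost. So were those of Ndufb6 (-0.29, 0.101) and, just, Ndufa6 (-0.39, 0.0511) in clone 3, and of Atp5a1 (0.25, 0.203) and Atp5g1 (0.28, 0.0882) in clone 4. Cox6c in clone 3 (-0.51, 0.0152), Ndufb9 in clone 3 (-0.54, 0.046) and Cox6b1 in clone 4 (-0.40, 0.0245) still passed. Chromosome 1, with Sdhc, and chromosome 9, with Cox5a, had medians between -0.08 and 0.06 in the 4 clones.

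The clones differed from each other in 20 of the 78 nuclear members (limma F test, adjusted p under 0.05), against 44.5% of all genes. With the chromosome medians removed, 9 nuclear members differed, and without 1 library in turn, 6 (without culture 1 of clone 3) to 37 (without culture 2 of clone 4). The strongest of these differences belonged to Cox6a2 (adjusted p = 0.00234), and Sdhc was not among them.

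Genes that build, supply or regulate the chain were counted in the same fit, and in clone 1 the only call among them was 1 glycolytic gene. The counts are read against the shares of all tested genes called higher and lower, which were 12% and 14.1% (clone 2), 19.9% and 20% (clone 3) and 19.3% and 17.2% (clone 4). Of 45 assembly factors tested, clone 2 had 3 higher and 2 lower, clone 3 had 2 higher and 9 lower, and clone 4 had 5 higher and 2 lower. The 9 lower in clone 3 matched the share of all genes, and the other counts lay below it. The complex I assembly factor Ndufaf7, a methyltransferase, was lower in clones 2 (-0.56, limma adjusted p = 0.00773) and 3 (-0.58, 0.00394), and Ndufaf3, another complex I assembly factor, in clone 3 (-0.46, 0.0113). Of 19 genes of the tricarboxylic acid cycle, clone 2 had 7 higher and 1 lower, clone 3 had 2 higher and 3 lower, and clone 4 had 7 higher and 1 lower. The counts higher in clones 2 and 4 lay above the shares of all genes, and the other counts below them. Pcx, the pyruvate carboxylase that feeds oxaloacetate into the cycle, had 260.4 to 839 normalised reads in the clones, against 1110 and 1057 in the parental cultures. It was lower in clones 2, 3 and 4 (-1.05, -1.45 and -1.29), and Ogdh, a subunit of the oxoglutarate dehydrogenase complex, was higher in clones 2 and 4 (0.75 and 0.82), each with an adjusted p of at most 0.00567 by limma.

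The mitochondrial ribosome, which translates the mitochondrial genes, had 77 members tested, with 5 higher and 0 lower in clone 2, while clone 3 had 6 higher and 7 lower and clone 4 had 14 higher and 2 lower. Against 19.3% of all genes the 14 were at the background, and every other count was below it. Mrpl33, a protein of its large subunit, was higher in clones 3 and 4 (0.84 and 0.66, limma adjusted p = 0.000829 and 0.00375). Among 27 regulators of mitochondrial gene expression, 3 were higher and 1 lower in clone 2, and 2 were higher and 5 lower both in clone 3 and in clone 4. The counts lower in clones 3 and 4 were near the 20% and 17.2% of all genes, and those higher in these clones were below the 19.9% and 19.3%. Tfam, which packages mitochondrial DNA and starts its transcription, was higher in clone 2 (0.54, limma adjusted p = 0.00605) and differed by 0.15 to 0.26 elsewhere without passing. Ppargc1a, the gene of PGC-1 alpha, had 1873 and 1587 normalised reads in clone 3 and 2915 and 1130 in clone 4, against 4253 and 4343 in the parental cultures. It was lower in clones 3 (-1.23, 0.00979) and 4 (-1.15, 0.0147) and differed by 0.16 and -0.38 in clones 1 and 2 without passing. Mitf, of the same list, did not fall with it, at 18127 to 21509 normalised reads in the clones against 17269 and 17693 in the parental cultures. Foxo3, a stress-response transcription factor, was lower in clones 3 (-0.67) and 4 (-0.83).

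Of 22 glycolytic genes, clone 1 had 0 higher and 1 lower, clone 2 had 4 of each, clone 3 had 3 higher and 6 lower, and clone 4 had 10 higher and 4 lower. The 10 higher in clone 4 lay well above the 19.3% of all genes, while the 3 higher in clone 3 lay below its 19.9%. Of all genes, 1.15% were higher and 2.35% lower in clone 1, and 12% and 14.1% in clone 2. Lower were 20% in clone 3 and 17.2% in clone 4. Ldhb, the lactate dehydrogenase subunit known for using lactate, was lower in all 4 clones, with normalised reads of 7532 and 7905 (clone 1), 4457 and 4640 (clone 2), 3256 and 3618 (clone 3) and 5140 and 4173 (clone 4), against 11424 and 11224 in the parental cultures. No library of a clone overlapped them, and 12.1% of all tested genes likewise had every clone library below both parental ones. Its log2 differences were -0.54, -1.28, -1.67 and -1.26, with adjusted p-values of at most 0.0325 by limma. Pdk3, a kinase that inhibits pyruvate dehydrogenase, and Pfkm, a phosphofructokinase, were lower in clones 2, 3 and 4, by -1.13, -0.93 and -1.05 for Pdk3 and by -0.97, -1.29 and -0.82 for Pfkm. Of 19 electron-carrier and coenzyme Q genes, 2 were higher in clone 2, 2 higher and 1 lower in clone 3, and 4 higher and 1 lower in clone 4, near or below the shares of all genes. Of the nuclear-retained RNAs used to watch RNA quality, Neat1 was lower in clone 2 (-0.81) and Kcnq1ot1 in clone 4 (-0.54), while Malat1 passed in none, and their part in the differences above was not tested.

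Tumour cells were then read in the single-cell matrices, where each condition is 1 matrix and no test is possible. Values are unique molecule counts (UMIs) summed over cells, levels are UMIs of a gene per 1000000 UMIs of the class (CPM), and 95% intervals, exact Poisson or exact binomial, cover counting error only. Melanocytic-like cells, taken by clusters formed without the respiratory chain genes, numbered 9306 of 13162 in the matrix labelled KO skin, 6590 of 11801 in WT skin, 5220 of 11281 in KO ocular and 6531 of 38176 in WT ocular. The 13 melanocytic markers took 4.13% of UMIs in these cells and 1.89% in the remaining cells of KO skin, 5.98% and 2.59% in WT skin, 5.22% and 1.76% in KO ocular, and only 1.17% and 0.69% in WT ocular, where the cells carried a median of 7 of the 13 markers against 4 in the rest. In WT ocular the label thus separates the cells weakly. The WT ocular matrix also came from another Cell Ranger version, gene list and barcode length, so KO ocular and WT ocular values stand side by side without a comparison. No full cell barcode was shared between matrices. KO skin and WT skin did share 2417 stretches of the first 16 barcode bases, and KO ocular shared 2014 with KO skin and 1793 with WT skin. WT ocular shared 0 to 4 with the others. The labels call the tissues multiplexed, and whether matrices came from a shared run was not tested. Bap1 stood at 47.0 CPM (45.5 to 48.6) in melanocytic-like cells of the matrix labelled KO skin and at 41.8 (40.2 to 43.5) in WT skin. It thus did not follow the labels, whereas in culture every clone had fewer Bap1 reads than the parental line. The cause was not tested. Every direction given for the skin matrices rests on labels that this gene did not bear out.

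Mitochondrial RNA was far lower in the matrix labelled KO skin. The 13 mitochondrial members took 0.359% of the UMIs of melanocytic-like cells there (95% interval 0.357% to 0.360%), against 3.07% in WT skin (3.069% to 3.078%). The nuclear members took 1.83% (1.826% to 1.833%) and 1.85% (1.847% to 1.854%), so the nuclear totals were nearly level while the mitochondrial ones were not. The median over cells of each cell's share was lower, at 0.222% mitochondrial in KO skin and 1.96% in WT skin, and at 1.17% and 1.57% nuclear, so on that scale the nuclear share of KO skin was below that of WT skin. Across the 8 melanocytic-like clusters of each skin matrix the mitochondrial share ran from 0.258% to 0.453% in KO skin and from 1.67% to 6.02% in WT skin, with no overlap, and the nuclear share from 0.907% to 2.22% and from 1.06% to 2.19%. Median depth was similar, at 4689.5 and 4882 UMIs per cell.

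The low mitochondrial share was also read in cell classes other than melanocytic-like. In macrophage-like cells it was 0.280% in the matrix labelled KO skin and 1.05% in WT skin, with nuclear shares of 1.09% and 1.03%. All 8 cell classes named in both skin matrices had a lower mitochondrial share in KO skin, from 0.266% in fibroblast-like to 0.649% in T and NK-like cells, against 1.05% in macrophage-like to 3.97% in B-like cells of WT skin. These classes also held melanocytic RNA, and free RNA was not removed. In KO skin their summed melanocytic markers ran from 7715 CPM (monocyte-like) to 36604 CPM (erythroid-like), against 41341 in melanocytic-like cells. The classes are thus not independent readings, and whether the difference is 1 between whole matrices was not tested. Genotype, tumour and library cannot be told apart.

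**Figure D4:**
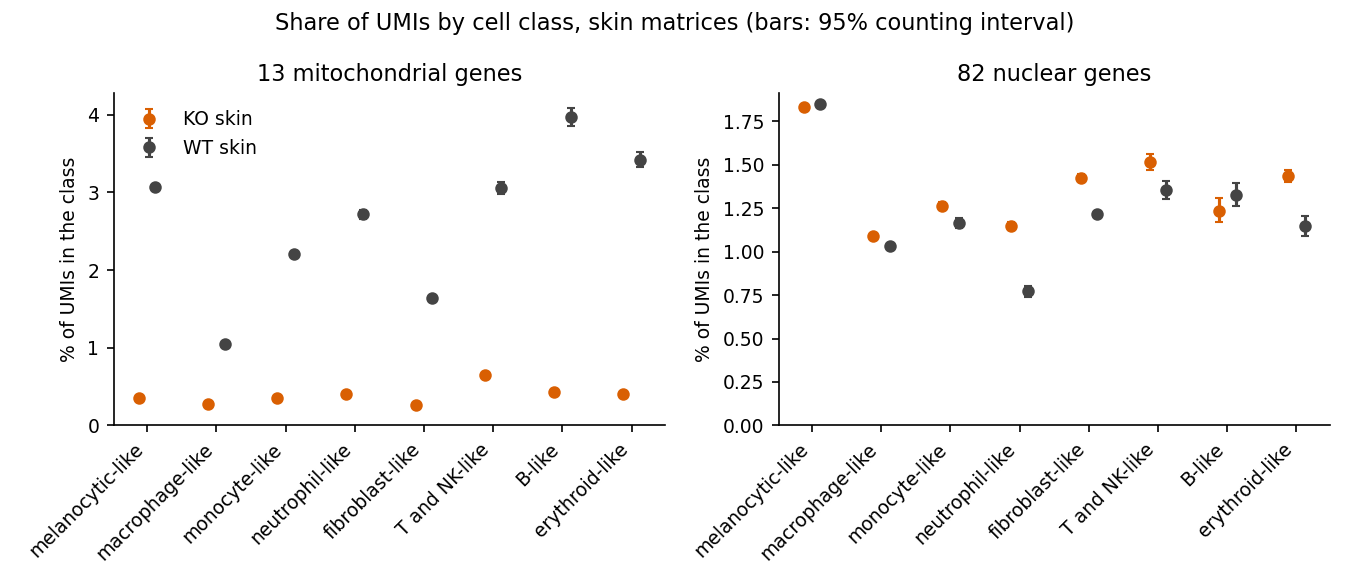
Share of UMIs (%) taken by mitochondrial and by nuclear respiratory chain genes in each cell class of the skin matrices, KO skin left of WT skin, with bars for the 95% counting interval. Mitochondrial shares are lower in KO skin in every class named in both matrices, and nuclear shares lie close together in melanocytic-like cells, at 1.83% and 1.85%.

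By gene, all 13 mitochondrial members were lower in melanocytic-like cells of the matrix labelled KO skin, with log2 ratios from -3.74 for mt-Co1 to -1.59 for mt-Nd6 and a median of -3.03. mt-Co1 had 190 CPM in KO skin (187 to 193), against 2529 in WT skin (2516 to 2542). mt-Co2, another core subunit of complex IV, had 499 and 5250, mt-Cytb 452 and 3708, and mt-Atp6, a complex V subunit, 485 and 3095. mt-Nd6 differed least, with 141 (138 to 144) and 424 (419 to 429). In macrophage-like cells the 13 log2 ratios ran from -2.39 for mt-Co1 to -0.85 for mt-Nd6, with a median of -1.85. As a share of all mitochondrial UMIs in melanocytic-like cells, mt-Nd6 thus made up 3.93% in KO skin (3.86% to 4.01%) and 1.38% in WT skin (1.36% to 1.396%). That share was higher in KO skin, whereas in the cultured clones mt-Nd6 was lower relative to the other mitochondrial reads. The bulk reads held almost no mt-Co2, mt-Atp6 or mt-Co3, so the bulk and single-cell values rest on unlike totals. In melanocytic-like cells of KO ocular, also labelled knockout and with the same gene list, the share was 0.780%, below that of WT skin. In macrophage-like cells it was again higher in KO skin than in WT skin, at 5.43% and 2.61%.

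Nuclear members in the tumours lay on both sides of a ratio of 1. Of 82, 76 had at least 200 UMIs in melanocytic-like cells of both skin matrices, and 9 of these were at least 1.5-fold higher and 13 at least 1.5-fold lower in KO skin, where 27.7% of all 9895 genes with that depth were higher and 16.4% lower. The median log2 ratio was -0.04 for the members and 0.17 for all genes. In macrophage-like cells, 70 members reached that depth, 8 of them higher and 4 lower, against 19.6% and 7.21% of 6061 genes. Summed by complex, melanocytic-like cells of KO skin and WT skin had 7752 and 7943 CPM for complex I, 1128 and 1136 for complex II, 1570 and 1594 for complex III, 4302 and 3977 for complex IV, and 3543 and 3859 for complex V. The mitochondrial subunits of complex I summed to 1116 and 8659, and those of complex IV to 1182 and 11632.

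Among members with at least 200 UMIs in both skin matrices, the largest ratios upward belonged to Ndufb6, an accessory subunit of complex I, and to Cox8b and Cox7a1, the isoforms of complex IV known from heart, skeletal muscle and brown fat. Ndufb6 had 307 CPM in KO skin and 119 in WT skin, a log2 ratio of 1.37 (1.33 to 1.41), beside 0.91 in macrophage-like cells. Cox8b had 29.2 and 12.3 (log2 ratio 1.25, and 2.35 in macrophage-like cells), and Cox7a1 17.8 and 9.36 (0.93, and 0.25 in macrophage-like cells). Downward, Uqcrh had 6.20 and 15.4 (-1.31, and -0.71 in macrophage-like cells), Ndufv2, a flavin-arm subunit of complex I, 83.5 and 165 (-0.98 and -0.92), and Ndufb4, a membrane-arm subunit, 45.3 and 88.4 (-0.96 and -0.93). For Ndufv2 and Ndufb4 the counting intervals of the ratio overlapped between the classes, whereas that of Ndufb6 was smaller in macrophage-like cells (0.79 to 1.03). The macrophage-like values of Cox8b, Cox7a1 and Uqcrh rest on 12 to 127 UMIs per matrix.

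**Figure D5:**
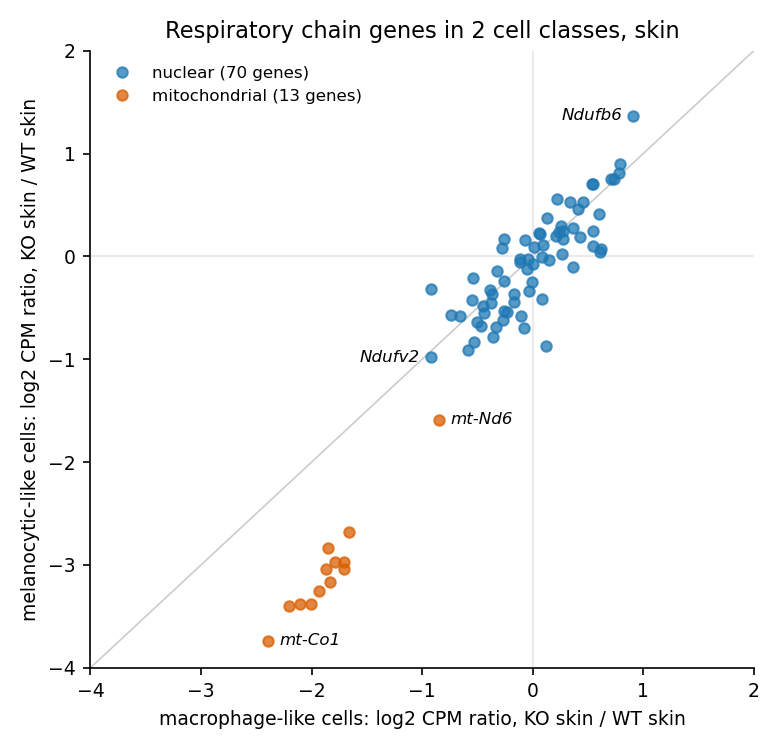
Log2 ratio of the matrix labelled KO skin over WT skin for each respiratory chain gene with enough UMIs, in macrophage-like cells (horizontal) and melanocytic-like cells (vertical), for 70 nuclear and 13 mitochondrial genes, with a line of equal ratios. Mitochondrial genes lie between -3.74 and -1.59 in melanocytic-like cells, apart from the nuclear genes. In macrophage-like cells they lie between -2.39 and -0.85 and nuclear genes between -0.92 and 0.91, so the ranges overlap there.

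Of the 4 nuclear genes of complexes II and IV followed by library, Sdhc and Cox6b1 were close to level in the skin tumours and Cox5a and Cox7a2 lay lower in KO skin. Sdhc had 225 CPM in KO skin (221 to 228) and 229 in WT skin (225 to 233), and Cox6b1 had 204 (200 to 207) and 197 (194 to 201). Cox5a had 183 (180 to 186) and 248 (244 to 252), a log2 ratio of -0.44, where clones 2, 3 and 4 had been higher in culture. Cox7a2 had 94.9 and 138 (-0.54). The 4 nuclear members with the highest summed UMIs over the matrices were Ndufa4, Cox8a, Atp5j2, a membrane subunit of complex V, and Cox7c, a membrane subunit of complex IV. Ndufa4 had 332 CPM in KO skin and 534 in WT skin, Cox8a 626 and 336, Atp5j2 466 and 469, and Cox7c 449 and 255. Isoforms known from other tissues or conditions were scarce: Cox4i2, the lung and low-oxygen isoform of subunit IV, had 0.134 and 0.288, Cox6b2, the testis isoform, 0.0938 and 0.0848, and Ndufa4l2, a low-oxygen relative of Ndufa4, 0.777 and 1.61. Cox6a2, which varied most among the clones, had 2.81 (2.45 to 3.22) and 0.424 (0.274 to 0.626), the WT skin value from only 25 UMIs, and in macrophage-like cells 2.81 (1.69 to 4.39) and 3.30 (2.34 to 4.51).

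In the eye, melanocytic-like cells of the matrix labelled KO ocular had 1.98% mitochondrial and 2.03% nuclear respiratory chain UMIs, and those of WT ocular 8.38% and 7.85%. The median over cells of the mitochondrial share in KO ocular was 0.865%. mt-Nd6 made up 0.780% of mitochondrial UMIs in KO ocular and 0.0901% in WT ocular. Sdhc had 296 and 82.7 CPM, Cox5a 305 and 2191, and Cox7a2 163 and 2379. Within KO ocular, the 7 melanocytic-like clusters ran from 0.622% to 3.98% mitochondrial and from 0.770% to 2.70% nuclear UMIs. KO ocular, which shares its gene list and workflow with the skin matrices, thus had a mitochondrial share between that of KO skin and that of WT skin, while its nuclear share was slightly above both.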

How the data were processed

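Bulk expression was deposited by the authors as variance-stabilised values on a log2 scale, from stranded polyadenylated RNA per the labels' protocols. The submitters' processing notes name GRCm38 and mm10 as builds, and the sources used here do not state the bulk aligner, counting tool or annotation. The values inverted to whole reads (100% within 0.01 of a whole number), which gave the depth and the normalised reads. Single-cell matrices were deposited as UMI counts per gene and barcode, from Cell Ranger 8.0.0 or, for WT ocular, 7.0.0, per the file headers.

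limma 3.58.1 (R 4.3.3) with a mean-variance trend fitted the 10 libraries as 5 groups to the stabilised values, for the 10803 genes whose mean lay at least 1 above the lowest value. P-values are two-sided and Benjamini-Hochberg adjusted over those genes, with a threshold of 0.05. With the clone as the unit, line means were fitted, and the spread of the single parental value was taken to equal that among the clones. Only respiratory chain genes and a few fixed lists are reported, and only the respiratory chain genes were followed through the alternatives. edgeR 4.0.16 (quasi-likelihood test) and DESeq2 1.42.0 on the recovered reads, quantile normalisation, other filters, a 2-group fit, a replicate block and leaving out each library were run as alternatives, and removing chromosome medians was added after the data were seen. On the recovered reads edgeR called 0, 6, 19 and 12 nuclear members in clones 1 to 4. The shares of all genes that edgeR called are not given, so these counts cannot be read against a background. The steps were tested on simulated data with 100 genes each changed by 1.5-fold and by 2-fold: edgeR recovered 15 and 80 in the clone 3 comparison, the limma F test 20 and 79, and the fit with the clone as the unit 0 and 0, so that fit could hardly call changes of this size. The members and gene lists were chosen with earlier results of these data known.

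Cells with at least 500 UMIs were clustered (leiden, resolution 1.0) without the respiratory chain and mitochondrial genes, and clusters were named from markers fixed before, by a naming rule set after the data were seen. Doublets were not called, and free RNA was not removed. Named are all mitochondrial members, in each clone up to 3 nuclear rises and 3 falls past the threshold, tissue isoforms, complex II, up to 3 genes per other list, and in single cells the highest and the most different members. The remaining called members, Ppargc1a, Mitf and the genes with no overlap between groups were named after their values were seen. The 3 neighbouring mitochondrial genes below the filter were left out of the tests. Whole-genome and whole-exome libraries were not analysed here.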

Additional observations from a re-analysis of the deposited data

Results flagged for a closer look

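Differences from the parental line varied among the 4 clones for 19 of the named genes, by the limma F test with Benjamini-Hochberg adjustment over all tested genes. Cox6a2 had an adjusted p of 0.00234 and log2 differences from -0.70 to 1.04. Ndufv3 had 0.00487 (-0.34 to 0.32), mt-Nd1 0.00571 (0.04 to 1.14), Cox6c 0.00615 (-0.78 to -0.05), Sdha 0.007 (-0.45 to 0.06), Ndufa8 0.00761 (-0.09 to 0.45) and Ndufb9 0.0112 (-0.81 to 0.15). Atp5a1 had 0.0128 (-0.19 to 0.48). Ndufb1 followed with 0.0133 (-0.19 to 0.63), mt-Cytb with 0.0268 (0.05 to 0.73), Ndufa6 with 0.0314 (-0.66 to -0.10), Ndufa5 with 0.0338 (-0.84 to -0.07), Cox4i1 with 0.0341 (-0.19 to 0.31) and Ndufa3 with 0.035 (-0.52 to 0.10). The p was 0.0399 for Cox6b1 (-0.60 to -0.19), 0.042 for mt-Nd4 (-0.27 to 0.33), 0.0422 for Cox5a (0.16 to 0.77), 0.0429 for Ndufa12 (-0.06 to 0.53) and 0.0437 for Cox6a1 (-0.04 to 0.55). Cox4i1 and mt-Nd4 passed this test without passing in any single clone. Across all genes 44.5% passed it.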

How the results depend on the processing

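mt-Nd6 passed the threshold in all 72 alternative values over the 4 clones, between -1.35 and -0.84 on the log2 scale, with a highest adjusted p of 0.0363 in clone 1. Over the 36 pairs of respiratory chain gene and clone past the threshold, 580 of 678 alternative values kept their call, 98 lost it with the same sign and none reversed, and 16 of the losses came from alternatives that keep every library. Nuclear members called in clone 2 numbered 4, against 8 with DESeq2 and 10 each after quantile normalisation and in the 2-group fit. That 2-group fit called 16% of all genes higher and 16.8% lower in clone 2. In clone 3 they numbered 16, against 27 after quantile normalisation and 52 in the 2-group fit. Mitochondrial members called numbered 1 in clone 2, against 2 with edgeR, DESeq2 and the 2-group fit and 3 after quantile normalisation, and 1 in clone 3, against 2 with edgeR, DESeq2 and the stricter filter, 4 after quantile normalisation and 5 in the 2-group fit. In clone 4 they numbered 3, against 5 with DESeq2. The 20 nuclear members that differed among clones became 9 with chromosome medians removed. The cause of these moves was not tested. For edgeR, DESeq2, the stricter filter, the replicate block and most fits without 1 library, the shares of all genes are not given. Member counts under those settings cannot be read against a background. Without 1 library in turn, nuclear members called ranged from 0 to 1 in clone 1, 0 to 12 in clone 2, 5 to 26 in clone 3 and 2 to 21 in clone 4, mitochondrial ones from 1 to 2 in clones 2 and 3 and 2 to 5 in clone 4, and members that differed among clones from 6 to 37 (nuclear) and 1 to 4 (mitochondrial).

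Cultures with the same replicate number did not deviate together in all pairs of lines (correlations of -0.128 to 0.727, 5 of 10 over 0.1), so the numbers were not taken to pair them. Every pair with the parental line, whose cultures lay closest to each other, was below zero (-0.128 to -0.074). Among pairs of clones only that of clones 3 and 4 (-0.026) was under 0.1, so a part shared by same-numbered clone cultures is possible and enters the main fit. With the replicate block, 9 nuclear members were called in clone 2 and 2 mitochondrial ones in clone 3, against 4 and 1 without it, and the other counts stayed within 1.5 times.

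In single cells, mitochondrial and nuclear shares moved by more than counting error. With melanocytic cells taken cell by cell they were 0.371% and 1.78% in KO skin, 2.93% and 1.77% in WT skin, 2.05% and 1.91% in KO ocular, and 11.6% and 6.07% in WT ocular. As a mean over cells they were 0.380% and 1.36%, 3.08% and 1.63%, 2.78% and 1.91%, and 9.57% and 7.52% in the same order. As a median over cells, a setting chosen after the data were seen, they were 0.222% and 1.17%, 1.96% and 1.57%, 0.865% and 1.84%, and 8.35% and 7.73%, so the skin and KO ocular mitochondrial shares and the KO skin nuclear share moved by over 1.5 times. Without cells above 20% mitochondrial UMIs they were 2.94% (mitochondrial) in WT skin, 1.81% and 2.03% in KO ocular, and 8.10% and 7.91% in WT ocular. With at least 1000 UMIs per cell they were 3.03% and 1.86% in WT skin, 1.97% (mitochondrial) in KO ocular, and 8.34% and 7.88% in WT ocular. Per nuclear UMIs the nuclear share was 1.84% in KO skin, 1.91% in WT skin, 2.07% in KO ocular and 8.57% in WT ocular. Each of these settings left the mitochondrial share of KO skin below that of WT skin.

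With 2 cultures per line, limma missed most 1.5-fold changes in the simulated clone 3 comparison, where it recovered 16 of 100. At 2-fold it recovered 81 of 100, and changes under 1.5-fold were not simulated. Only 100 genes at each fold were changed among 10803. In the data 19.9% of genes were called higher and 20% lower in clone 3, which eases the adjusted threshold, and Ndufv3 passed at -0.34. The simulated recovery thus does not describe the sensitivity of the real comparison. Depth of 30.8 M reads or more did not limit the nuclear members, while mt-Co2, mt-Atp6 and mt-Co3 held too few reads to test. With 1 matrix per condition, no single-cell difference has a replicate error.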

Other observations

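The matrix labelled KO ocular held 200 cells in clusters that took no name, and 43.1% of their UMIs (42.9% to 43.3%, exact binomial, counting error only) came from mitochondrial members, with 0.957% from nuclear ones. Their median depth was 1165.5 UMIs per cell, against 9091.5 in the melanocytic-like cells of the same matrix. The erythroid-like cells of that matrix had 1.24% mitochondrial and 0.929% nuclear respiratory chain UMIs. In the matrix labelled WT ocular, Muller glia and astrocyte-like cells had 15.96% and 4.87%, bipolar and amacrine-like cells 15.1% and 5.18%, and cone-like cells 15.98% and 5.10%. The mitochondrial share was higher and the nuclear share lower there than in melanocytic-like cells, at 8.38% and 7.85%. The same held for every other class of that matrix. Mitochondrial shares outside melanocytic-like cells ran from 10.0% (fibroblast-like) to 18.4% (rod-like), and nuclear shares from 4.51% (erythroid-like) to 5.33% (not named).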
